A study of Homo sapiens with 12 samples.

Results

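The genes described here are 8 matrix metalloproteinases (MMP1, MMP2, MMP3, MMP7, MMP9, MMP10, MMP14 and MMP15) and 2 tissue inhibitors of metalloproteinases (TIMP1 and TIMP2). They were taken by gene symbol, and all 10 were found among the 19516 genes with a symbol in a table of estimated read counts. The RNA came from MDA-MB-231 and HCC1937, established human breast cancer lines of the triple-negative class, defined by the lack of estrogen receptor, progesterone receptor and HER2 amplification. Cells were kept for 72 h with or without an aqueous extract of the succulent plant Kalanchoe pinnata, and the stated interest of the study was cell migration. MDA-MB-231 received 140 µg/mL of extract and HCC1937 received 66 µg/mL, so the 4 groups were MDA-MB-231 with extract, MDA-MB-231 control, HCC1937 with extract and HCC1937 control. Each group held 3 libraries, all labelled wild type (WT) epithelial cells of the breast. MDA-MB-231 grew in DMEM and HCC1937 in RPMI medium, so a difference between the lines cannot be told apart from one of medium or concentration. The labels do not say that the libraries of a group came from separate cultures, so p-values here measure only how these libraries spread, which may be technical.

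MMPs are zinc-dependent endopeptidases that cut collagens, laminins, fibronectin and other parts of the extracellular matrix. Most are secreted as inactive proenzymes, a few such as MMP14 are held in the cell membrane, and TIMPs bind the active enzymes and block them. In carcinomas they are studied for their part in crossing basement membrane and stroma, and many of the genes have promoters that carry sites for AP-1 and ETS transcription factors.

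The feature that joins the 8 enzymes is the zinc-binding site of the catalytic domain, in which 3 histidines hold the metal ion. The coding stretch of that site is shown for each enzyme, 33 bases read 5′ to 3′ on the coding strand from the longest protein-coding transcript in GENCODE 29 (GRCh38), with the 3 histidine codons in capitals.
MMP1: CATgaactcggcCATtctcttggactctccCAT
MMP3: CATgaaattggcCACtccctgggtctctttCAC
MMP10: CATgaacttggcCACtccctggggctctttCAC
MMP7: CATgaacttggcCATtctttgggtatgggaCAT
MMP2: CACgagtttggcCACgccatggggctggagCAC
MMP9: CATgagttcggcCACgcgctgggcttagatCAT
MMP14: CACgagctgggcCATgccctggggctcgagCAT
MMP15: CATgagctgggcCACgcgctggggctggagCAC
MMP3 and MMP10, the stromelysin pair, were identical at 31 of the 33 bases. MMP14 and MMP15, both membrane-type enzymes, shared 28, as did the gelatinase MMP2 and MMP15, and MMP1 and MMP2 shared 18, the fewest among the 28 possible pairs. Over the whole transcript, 6.29% of the 31-base words of MMP3 also occurred in MMP10, so reads of these 2 genes could be split between them by the authors' quantification. MMP9 shared 13.8% of its words with the antisense transcript SLC12A5-AS1, and TIMP2 shared 14.0% with AC022966.1 and CEP295NL. MMP1 shared 4.85% with WTAPP1 and MMP2 shared 3.93% with AC007336.3, while MMP7, MMP14, MMP15 and TIMP1 shared none with another gene. Words were counted as shared on either strand. Whether the authors' quantification used strand is not given in the sources used here. It is thus not known whether reads of MMP9 and of its antisense partner were told apart in those stretches.

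Library totals ran from 16170346 to 31337261 counts, and 14133 genes passed the filter on low counts, among them 8 of the 10 members. Levels are given as CPM, in which TMM factors put all libraries on 1 common size, so a level is a share of the library and not an amount per cell. In such bulk RNA, fewer cells of a type and less RNA per cell cannot be told apart. The extract library E7 of MDA-MB-231 stood apart from E8 and E9. Mitochondrial genes took 10.74% of its counts against 2.76% to 4.783% in the other 11 libraries, and its Spearman correlations over genes were 0.9746 with E8 and 0.9744 with E9, against 0.9882 or more in all other replicate pairs. Its group had a biological coefficient of variation of 0.294, against 0.0409 to 0.0449 in the other 3. The fit takes 1 spread per gene over all 12 libraries, so E7 also enters the SE and p of tests within HCC1937 and between controls. A smooth fit on transcript length and GC explained 29.5% of the variance among the fold changes with extract in MDA-MB-231, and 33.7% in HCC1937. Values are therefore also given with an offset fitted per library for length and GC, and in MDA-MB-231 without E7, where either one changed a call, turned a direction or moved a called value of a named gene by over 1.5 times. The epithelial label was checked on markers. CDH1 and KRT5 had no reads in any MDA-MB-231 library, while KRT8 averaged 845 CPM in MDA-MB-231 with extract and 472 CPM in its controls, and all 5 epithelial markers averaged at least 1 CPM in both HCC1937 groups, with sums of 10145 to 10287 CPM with extract against 3874 to 4001 CPM in controls. In HCC1937 KRT8 averaged 5721 CPM with extract against 2305 CPM in controls, KRT18 4258 against 1259 CPM and KRT19 7.13 against 5.04 CPM. EPCAM and CDH1 were lower there with extract, at 94.5 against 173 CPM and 120 against 186 CPM. In MDA-MB-231 KRT18 averaged 1024 CPM with extract against 273 CPM in controls, and EPCAM 9.90 against 12.1 CPM. Of the basal markers, EGFR averaged 157 CPM with extract against 149 CPM in MDA-MB-231 controls, and 118 against 198 CPM in HCC1937. KRT17 averaged 1.53 against 0.0971 CPM in MDA-MB-231, and 1006 against 444 CPM in HCC1937. KRT5 averaged 72.9 against 58.8 CPM in HCC1937, and KRT14 12.2 against 3.04 CPM. The fibroblast marker DCN had no reads in any library. The 4 fibroblast markers together, DCN, LUM, COL1A1 and PDGFRB, summed to 4.48 to 9.35 CPM in MDA-MB-231 with extract against 22.3 to 26.4 CPM in its controls, and to 6.63 to 8.19 CPM in HCC1937 with extract against 29.3 to 31.5 CPM in its controls. Macrophage markers (CD14, CSF1R and PTPRC) summed to 9.17 to 10.0 CPM in HCC1937 with extract against 4.39 to 5.03 CPM in its controls, and to 0.716 to 1.49 CPM in MDA-MB-231 with extract against 0.827 to 1.33 CPM in its controls. The endothelial markers PECAM1 and CDH5 summed to 15.2 to 17.1 CPM in HCC1937 with extract against 22.4 to 22.9 CPM in its controls, and to at most 1.16 CPM in MDA-MB-231. Of the mesenchymal markers, VIM averaged 4286 CPM in MDA-MB-231 with extract against 3736 CPM in its controls, and ZEB1 averaged 5.22 CPM with extract against 60.3 CPM in those controls. In HCC1937 VIM averaged 2.83 CPM with extract against 13.9 CPM in controls, and ZEB1 0.117 against 1.44 CPM. FN1 averaged 113 CPM with extract against 432 CPM in MDA-MB-231 controls, and 11.3 CPM against 45.2 CPM in HCC1937 controls. SPARC averaged 7.74 CPM with extract against 8.64 CPM in MDA-MB-231 controls, and 55.1 CPM against 39.1 CPM in HCC1937 controls. Of the receptor genes, ESR1 averaged 2.02 CPM with extract against 7.19 CPM in HCC1937 controls, and 0.0256 against 0.386 CPM in MDA-MB-231. PGR averaged 0.447 CPM with extract against 2.88 CPM in MDA-MB-231 controls, and 0 against 0.0117 CPM in HCC1937. ERBB2, which encodes HER2, averaged 148 against 146 CPM in HCC1937, and 73.6 against 51.5 CPM in MDA-MB-231. The part of these markers in the results was not tested.

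The transcripts of MMP1, MMP2, MMP3, MMP9 and TIMP1 rose in HCC1937 with extract, and none of the 8 members tested was called lower there without a length and GC offset. The rise of MMP9 was not called with that offset (edgeR adjusted p = 0.504), nor without E25, E27, E31 or E32. In MDA-MB-231 with extract, MMP1 and MMP3 rose and MMP9 fell. MMP1 was the member with the largest change in HCC1937, 58.8-fold higher with extract, against 2.26-fold higher in MDA-MB-231. Of the 8 members tested in HCC1937, 5 were called higher by edgeR's quasi-likelihood test at an adjusted p under 0.05, where 32.7% of all tested genes were. The call of MMP3 rests on 37 reads with extract and 8 in controls. None was called lower, also at an unadjusted p under 0.05 (0 members) and with DESeq2 (0 members), where 39.1% of all tested genes were called lower by edgeR, but with the offset TIMP2 was. Every extract library lay above every control library of HCC1937 for 7 members, which was so for 38.3% of all tested genes, and the reverse held for 0 members, against 43.8% of genes. In MDA-MB-231, 2 members were called higher and 1 lower, where 33% and 32.8% of all tested genes were. Extract libraries lay above controls without overlap for 2 members and below for 3, where 32.5% and 35.2% of genes did. MMP2 had 0 reads in the MDA-MB-231 extract libraries and 1 read in the controls, and is given no fold change in that line. The median log2 fold change was 1.39 over the 8 members tested in HCC1937, against -0.16 over all tested genes, and -0.11 over the 7 members with a fold change in MDA-MB-231, against 0.00 over all tested genes.

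**Figure D1:**
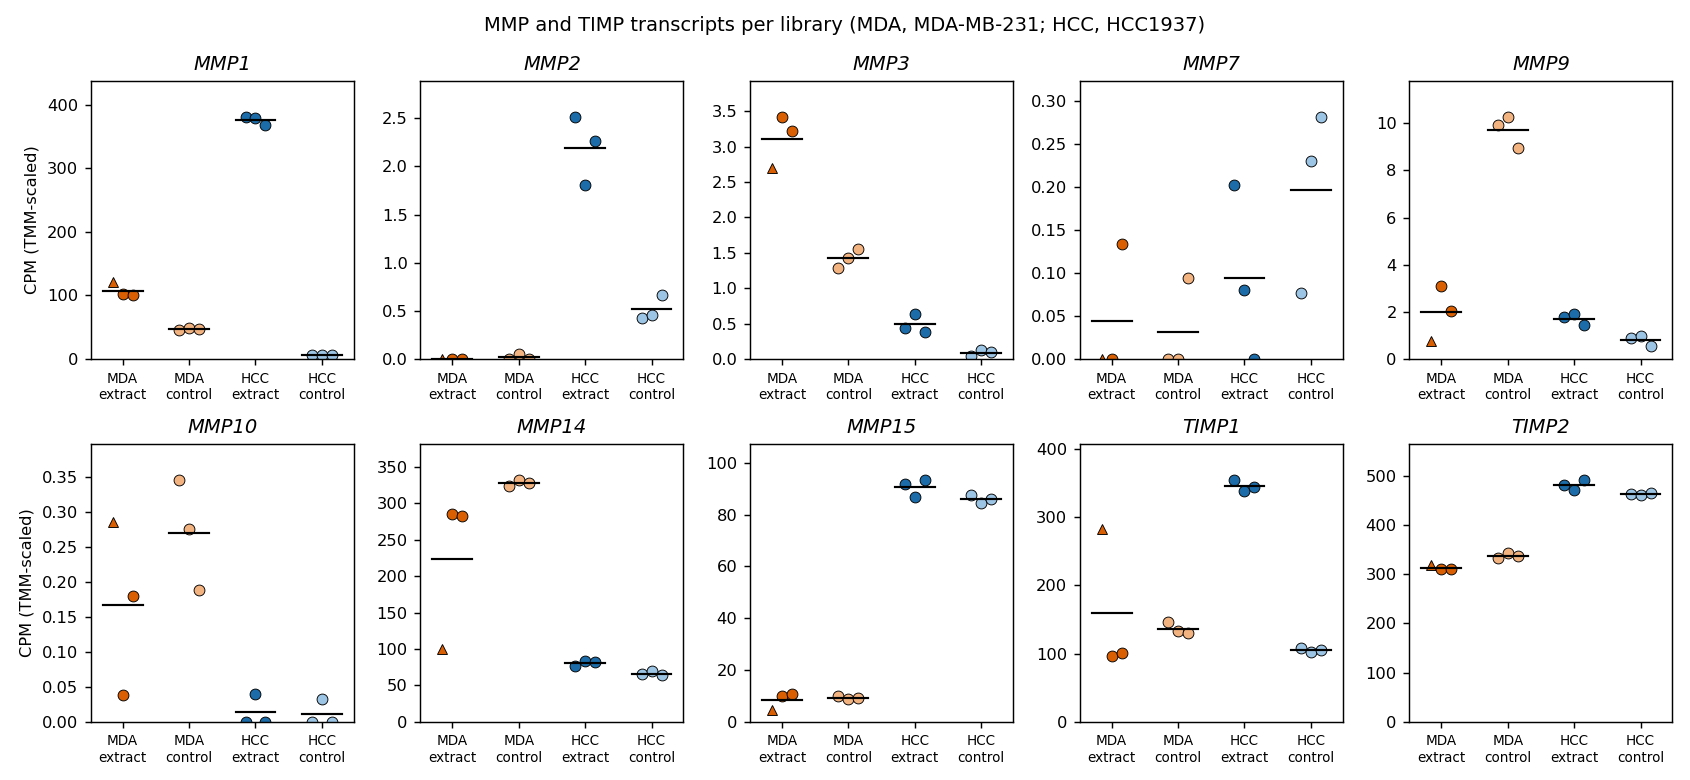
CPM of the 10 genes in each of the 12 libraries, by group (MDA, MDA-MB-231; HCC, HCC1937), with a bar at the group mean of 3 libraries and library E7 drawn as a triangle. MMP1 in HCC1937 sits at 368 to 380.3 CPM with extract and at 6.12 to 6.64 CPM in controls, while MMP7 and MMP10 reach at most 0.281 and 0.345 CPM.

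MMP1 (Entrez 4312) is interstitial collagenase, which cleaves the triple helix of fibrillar collagens. It lies on the minus strand of GRCh38 chromosome 11, from 102789920 to 102798160. MMP1 in HCC1937 with extract had 380.3 CPM in E31, 379 in E32 and 368 in E33, against 6.64 CPM in the control library E25, 6.40 in E26 and 6.12 in E27. These groups were far apart, with little spread inside either. This was a log2 fold change of 5.88 ± 0.10 (SE, edgeR adjusted p = 3.65e-11). MMP1 in MDA-MB-231 with extract had 120.5 CPM in E7, 102 in E8 and 100.4 in E9, against 46.1 CPM in the control library E1, 49.0 in E2 and 47.5 in E3. All 3 extract libraries were above all controls, with E7 close to the other extract libraries. This was a log2 fold change of 1.18 ± 0.08 (SE, edgeR adjusted p = 2.12e-07). The extract effect was larger in HCC1937 than in MDA-MB-231 by 4.70 ± 0.12 on the log2 scale (edgeR adjusted p = 1.91e-09 for the difference). Of the members with a fold change, 3 were called higher in this test of the difference and 0 lower, where 11.5% and 20.6% of all tested genes were. No member was lower at an unadjusted p under 0.05 either (0 members), nor with DESeq2 (0 members). With RLE in place of TMM scaling the median of all genes in this difference was higher by 0.11 on the log2 scale, at -0.05 against -0.16, and the value for MMP1 was 4.81.

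The order of the lines turned with extract. MMP1 was lower in HCC1937 controls than in MDA-MB-231 controls, by a log2 fold change of -2.90 ± 0.09 (SE, 7.44-fold, edgeR adjusted p = 1.66e-10). With extract it was higher in HCC1937 than in MDA-MB-231, by 1.80 ± 0.08 (SE, 3.49-fold, edgeR adjusted p = 3.76e-09), and by 2.41 with the offset. The 4 groups did not overlap, and ran from HCC1937 control, the lowest, through MDA-MB-231 control and MDA-MB-231 with extract to HCC1937 with extract. Among the 8 members tested, 3 were higher and 4 lower in HCC1937 controls than in MDA-MB-231 controls, where 38.7% and 36.7% of all tested genes were. Control libraries of the lines did not overlap for 3 members that were higher and 5 that were lower in HCC1937, as for 45.3% and 43.0% of all tested genes. Between the extract groups, 5 members were higher and 2 lower in HCC1937, where 34.1% and 39.7% of all tested genes were. The extract groups did not overlap for 5 members higher and 2 lower in HCC1937, as for 34.6% and 37.7% of all tested genes. In these counts MMP2, which passed the filter through HCC1937 libraries, and MMP3, which passed through MDA-MB-231 libraries, had to differ between the lines.

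MMP1 belongs to a cluster of 9 MMP genes on chromosome 11, chr11:102520508-102955734, which spans 435.2 kb and holds 4 of the members. The others of the cluster had few or no reads. MMP20, MMP27 and MMP8 had 0 reads in all 12 libraries, where a count of 0 allows up to 0.0990 to 0.213 CPM in a single library, the value of 3 counts, which covers counting error only. MMP12 had at most 5 reads in any group. MMP13, a collagenase like MMP1, had 3 reads over the MDA-MB-231 extract libraries against 14 in its controls, and 0 reads over the HCC1937 extract libraries against 28 in its controls. MMP7 and MMP10 are described below as members, and MMP1 and MMP3 were the 2 genes of the cluster that passed the filter.

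MMP3 (Entrez 4314; minus strand, chr11:102835801-102843803) is stromelysin-1, which cuts proteoglycans, laminin and fibronectin and activates the proenzymes of other MMPs. It was a low-level transcript in all groups. MMP3 in MDA-MB-231 with extract had 2.70 CPM in E7, 3.41 in E8 and 3.22 in E9, against 1.28 CPM in the control library E1, 1.43 in E2 and 1.55 in E3. The extract libraries were all above the controls. This was a log2 fold change of 1.13 ± 0.25 (SE, 2.19-fold, edgeR adjusted p = 0.00178). MMP3 in HCC1937 with extract had 0.445 CPM in E31, 0.643 in E32 and 0.377 in E33, against 0.0384 CPM in E25, 0.132 in E26 and 0.105 in E27. The groups did not overlap. The filter asks for 0.424 CPM on library totals without TMM factors, a scale that differs from the CPM listed here. On that scale 1 of the 3 extract libraries and 0 of the 3 controls reached it, so MMP3 passed through MDA-MB-231. Its log2 fold change in HCC1937 was 2.31 ± 0.41 (SE, 4.96-fold, edgeR adjusted p = 0.000338). The difference between the lines, 1.18 ± 0.49 (SE), was not called (edgeR adjusted p = 0.0876). MMP3 was lower in HCC1937 than in MDA-MB-231 in both states, 6.37-fold with extract and 14.4-fold in controls.

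MMP10 (Entrez 4319; minus strand, chr11:102770503-102780628), stromelysin-2, and MMP7 (Entrez 4316; minus strand, chr11:102520508-102530753), matrilysin, a small MMP without the hemopexin domain, did not pass the filter and were not tested. MMP10 had 9 reads over the MDA-MB-231 extract libraries against 16 in its controls, and 1 read in each HCC1937 group. MMP7 had 3 reads in MDA-MB-231 with extract against 2 in its controls, and 7 reads in HCC1937 with extract against 17 in its controls. In both genes the libraries of neighbouring groups overlapped.

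Promoter sequence from RefSeq (GRCh38.p14) was at hand for 5 members, MMP7, MMP10, MMP14, MMP15 and TIMP1, and not for MMP1, MMP2, MMP3, MMP9 and TIMP2. Which members are shown was thus set by what was at hand, so motifs cannot be set against level or response to extract here. The 100 bases before the start annotated by RefSeq are shown on the strand of the gene. Matches to the AP-1 letters TGANTCA and to the TATA box letters TATAAA are in capitals.
MMP7: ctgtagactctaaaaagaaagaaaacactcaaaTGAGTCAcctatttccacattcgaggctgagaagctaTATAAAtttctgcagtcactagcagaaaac
MMP10: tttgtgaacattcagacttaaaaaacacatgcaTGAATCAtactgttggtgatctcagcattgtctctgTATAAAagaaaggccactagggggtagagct
MMP14: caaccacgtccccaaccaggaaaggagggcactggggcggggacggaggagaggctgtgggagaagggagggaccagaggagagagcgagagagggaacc
MMP15: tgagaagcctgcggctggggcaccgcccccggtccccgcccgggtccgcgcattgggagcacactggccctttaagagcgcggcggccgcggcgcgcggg
TIMP1: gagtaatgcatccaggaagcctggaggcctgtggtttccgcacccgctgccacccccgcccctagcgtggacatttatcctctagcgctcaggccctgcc
The windows are chr11:102530748-102530847 (minus strand) for MMP7, chr11:102780629-102780728 (minus strand) for MMP10, chr14:22836485-22836584 (plus strand) for MMP14, chr16:58025654-58025753 (plus strand) for MMP15 and chrX:47582336-47582435 (plus strand) for TIMP1. The search covered 300 bases, 250 before to 50 after the start. TGANTCA reads the same on both strands, TATAAA was searched on the strand of the gene, and the matches did not overlap. The AP-1 letters began at -67 from the start in MMP7 and in MMP10, and the TATA box letters at -30 and -31. Neither motif was found in the windows of MMP14, MMP15 or TIMP1. The GENCODE starts of MMP15 (58025566) and TIMP1 (47582313) lie before the windows shown, and that of MMP14 (22836557) lies inside its window. For these genes the bases before the GENCODE start were thus searched only in part. Those of MMP7 and MMP10 lie at or near the edge of their windows. Only these exact letters were searched, so other forms of AP-1 sites or TATA boxes would be missed. Of 35116 promoters of the same length, 7.71% held TGANTCA, 7.33% held TATAAA and 0.834% held both. GC made up 37.0% of the 100 bases in MMP7 and 39.0% in MMP10, against 64.0% to 78.0% in the other 3.

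MMP9 (Entrez 4318; plus strand, chr20:46008908-46016561) is gelatinase B, which degrades denatured collagen and the type IV collagen of basement membranes. It moved in opposite directions in the lines. MMP9 in MDA-MB-231 with extract had 0.782 CPM in E7, 3.11 in E8 and 2.06 in E9, against 9.91 CPM in the control library E1, 10.2 in E2 and 8.95 in E3. Each extract library lay below each control, and E7 was the lowest. Its log2 fold change was -2.22 ± 0.33 (SE, 4.65-fold lower, edgeR adjusted p = 9.6e-05), and without E7 it was -1.89. MMP9 in HCC1937 with extract had 1.78 CPM in E31, 1.89 in E32 and 1.43 in E33, against 0.883 CPM in E25, 0.990 in E26 and 0.563 in E27. The extract libraries were above the controls, at 129 reads against 69. Its log2 fold change was 1.06 ± 0.38 (SE, 2.08-fold, edgeR adjusted p = 0.0264). This rise was not called with the length and GC offset (log2 fold change 0.33, edgeR adjusted p = 0.504), nor without E25 (adjusted p = 0.0505), E27 (0.0971), E31 (0.0563) or E32 (0.0658). The effect in HCC1937 was above that in MDA-MB-231 by 3.28 ± 0.50 on the log2 scale (SE, 9.69-fold, edgeR adjusted p = 0.000535).

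In controls MMP9 was 11.9-fold lower in HCC1937 than in MDA-MB-231 (log2 fold change -3.57 ± 0.36, edgeR adjusted p = 2.43e-06). With extract the 2 lines overlapped, at a log2 fold change of -0.29 ± 0.35 (SE, edgeR adjusted p = 0.473). That last value was -0.63 without E7 (adjusted p = 0.0225) and 0.19 without E8 (adjusted p = 0.646).

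MMP2 (Entrez 4313; plus strand, chr16:55389700-55506691) is gelatinase A, the other enzyme of this class, whose proenzyme is activated at the cell surface by MMP14 with TIMP2. It had reads in all HCC1937 libraries and hardly any in MDA-MB-231. MMP2 in HCC1937 with extract had 2.51 CPM in E31, 1.81 in E32 and 2.26 in E33, against 0.423 CPM in E25, 0.462 in E26 and 0.668 in E27. All extract libraries were above all controls. This was a log2 fold change of 2.07 ± 0.34 (SE, 4.20-fold, edgeR adjusted p = 0.000356), on 167 reads against 44, and it was 1.59 with the length and GC offset. In MDA-MB-231 it had 0 reads with extract and 1 read in controls. MMP2 was at least 45.7-fold higher in HCC1937 than in MDA-MB-231 with extract, and at least 10.3-fold higher in HCC1937 controls than in MDA-MB-231 controls, each taken against 3 counts over the MDA-MB-231 group.

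**Figure D2:**
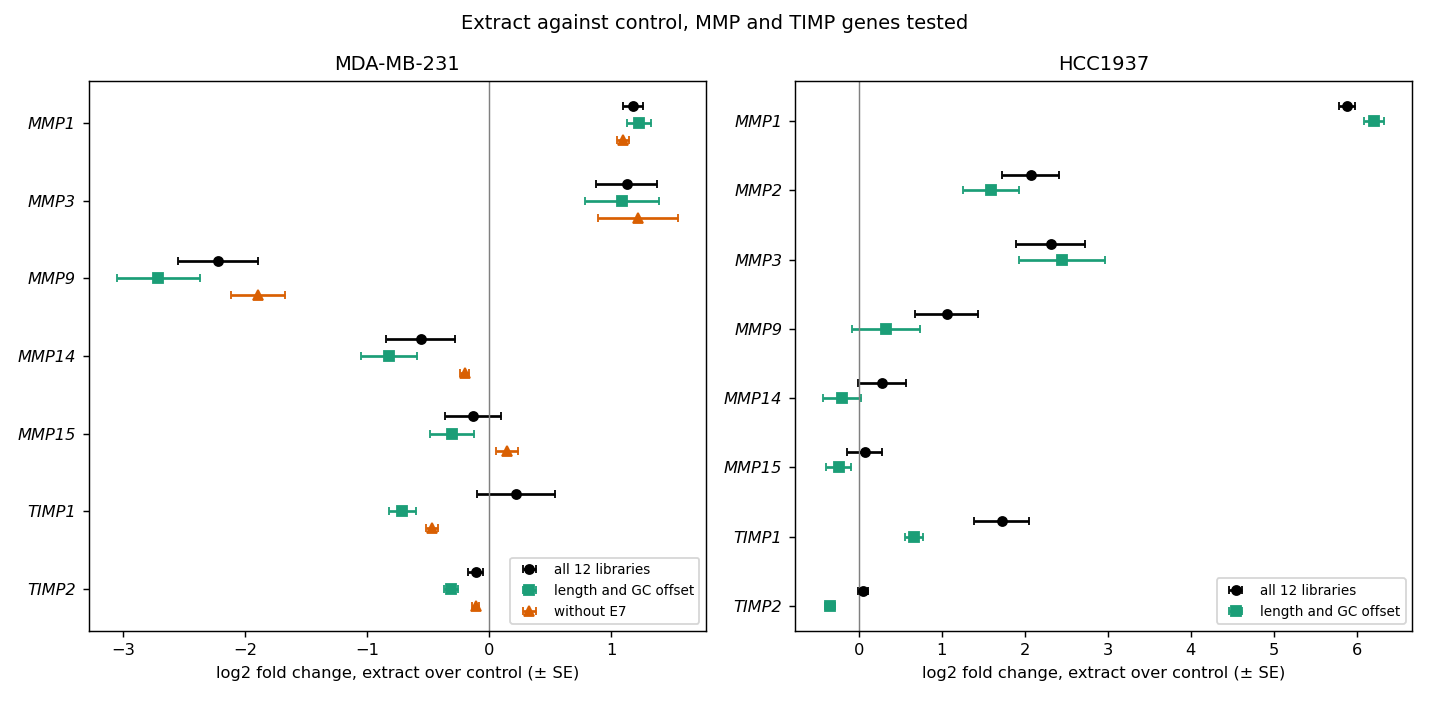
Log2 fold change of extract over control (x axis, bars are ± SE) for the MMP and TIMP genes with a fold change in MDA-MB-231 (left) and HCC1937 (right). Circles are the fit to all 12 libraries, squares the same with a length and GC offset, and triangles the fit without library E7. TIMP1 in MDA-MB-231 lies at 0.22 with all libraries, at -0.71 with the offset and at -0.47 without E7.

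MMP14 (Entrez 4323; plus strand, chr14:22836557-22849027), also called MT1-MMP, is a membrane-type MMP that cuts collagen around the cell and activates pro-MMP2. MMP14 in MDA-MB-231 with extract had 100.1 CPM in E7, 286 in E8 and 283 in E9, against 324 CPM in the control library E1, 332 in E2 and 328 in E3. All 3 extract libraries were below the controls, E7 by far. The log2 fold change was -0.56 ± 0.28 (SE) and was not called (edgeR adjusted p = 0.106). Without E7 it was -0.20 (adjusted p = 6.43e-05), with the offset -0.82 (adjusted p = 0.00664) and without E8 -0.78 (adjusted p = 0.0449), each of them called lower. MMP14 in HCC1937 with extract had 76.5 CPM in E31, 82.8 in E32 and 81.8 in E33, against 65.6 CPM in E25, 69.2 in E26 and 63.8 in E27. The groups did not overlap, but the log2 fold change of 0.28 ± 0.29 (SE) was not called (edgeR adjusted p = 0.396). In a fit of the HCC1937 libraries alone, which leaves out E7, it was 0.33 ± 0.05 (SE, edgeR adjusted p = 6.64e-07). With the offset it was -0.20 (edgeR adjusted p = 0.458). MMP14 was lower in HCC1937 than in MDA-MB-231 in both states, 2.78-fold with extract (edgeR adjusted p = 0.00067) and 4.96-fold in controls (edgeR adjusted p = 2.21e-05).

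MMP15 (Entrez 4324; plus strand, chr16:58025566-58046901), or MT2-MMP, is the other membrane-type enzyme, and its level followed the line. MMP15 in HCC1937 with extract had 91.8 CPM in E31, 86.6 in E32 and 93.4 in E33, against 87.6 CPM in E25, 84.4 in E26 and 86.1 in E27, and the groups overlapped. The log2 fold change of 0.07 ± 0.21 (SE) was not called (edgeR adjusted p = 0.764), while the HCC1937 libraries alone gave 0.13 (edgeR adjusted p = 0.00894) and the offset -0.24 (adjusted p = 0.164). MMP15 in MDA-MB-231 with extract had 4.34 CPM in E7, 9.98 in E8 and 10.6 in E9, against 9.86 CPM in E1, 8.82 in E2 and 9.09 in E3. E7 was the lowest, and E8 and E9 lay above all controls. The log2 fold change was -0.13 ± 0.23 (SE, edgeR adjusted p = 0.65), and 0.15 without E7 (adjusted p = 0.142). MMP15 was 10.7-fold higher in HCC1937 than in MDA-MB-231 with extract and 9.29-fold higher in controls, with edgeR adjusted p = 9.55e-08 and 1.38e-07. These log2 fold changes of 3.42 and 3.22 were 2.65 and 2.59 with the offset.

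TIMP1 (Entrez 7076; plus strand, chrX:47582313-47586789) encodes a secreted inhibitor of most MMPs that binds pro-MMP9 and is weak against MMP14. TIMP1 in HCC1937 with extract had 355 CPM in E31, 339 in E32 and 345 in E33, against 108 CPM in E25, 103 in E26 and 105 in E27. The groups were well apart. Its log2 fold change was 1.72 ± 0.33 (SE, 3.29-fold, edgeR adjusted p = 0.000541), and it was 0.67 with the length and GC offset (edgeR adjusted p = 0.000129). TIMP1 in MDA-MB-231 with extract had 282 CPM in E7, 96.1 in E8 and 101 in E9, against 146 CPM in E1, 134 in E2 and 129.9 in E3. E7 lay above all controls, and E8 and E9 below them. The log2 fold change of 0.22 ± 0.32 (SE) was not called (edgeR adjusted p = 0.564). Without E7 it was -0.47 ± 0.05 (edgeR adjusted p = 1.52e-09), and with the offset it was -0.71 ± 0.11 (edgeR adjusted p = 9.29e-05), so both alternatives called TIMP1 lower. The effect in HCC1937 was above that in MDA-MB-231 by 1.49 ± 0.45 on the log2 scale (SE, 2.82-fold, edgeR adjusted p = 0.026). It was 2.21 without E7, and it lost its call without E1 (adjusted p = 0.0576), E25 (0.0527), E26 (0.0573), E27 (0.056) or E31 (0.0518). TIMP1 was 2.17-fold higher in HCC1937 than in MDA-MB-231 with extract (edgeR adjusted p = 0.00801), and 3.47-fold without E7. In controls the log2 fold change of -0.38 ± 0.32 (SE) was not called (edgeR adjusted p = 0.303), although all HCC1937 controls were below all MDA-MB-231 controls. In a fit of the control libraries alone it was -0.41 (edgeR adjusted p = 7.57e-09), and with the offset -0.34 (adjusted p = 0.0126), both called.

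TIMP2 (Entrez 7077; minus strand, chr17:78852977-78925387) encodes the inhibitor that also serves as the bridge between MMP14 and pro-MMP2. TIMP2 in MDA-MB-231 with extract had 319 CPM in E7, 311 in E8 and 312 in E9, against 333 CPM in E1, 344 in E2 and 336.5 in E3, all extract libraries below all controls. TIMP2 in HCC1937 with extract had 482 CPM in E31, 471 in E32 and 492 in E33, against 464 CPM in E25, 462 in E26 and 467 in E27, all extract libraries above all controls. The shifts were small beside those of the other members. The log2 fold change was -0.11 ± 0.06 in MDA-MB-231 (SE, edgeR adjusted p = 0.169) and 0.05 ± 0.06 in HCC1937 (SE, edgeR adjusted p = 0.463). Neither was called. In MDA-MB-231 it was called lower without E7 (-0.11, edgeR adjusted p = 0.00473), with the offset (-0.31, adjusted p = 0.000633) and by DESeq2 (-0.13, adjusted p = 0.000464). In HCC1937 it was called higher in the fit of that line alone (0.11, edgeR adjusted p = 0.00125) and by DESeq2 (0.15, adjusted p = 1.01e-05), and lower with the offset (-0.35, edgeR adjusted p = 0.000207). TIMP2 was higher in HCC1937 than in MDA-MB-231 in both states, 1.53-fold with extract and 1.37-fold in controls. The differences of the extract effects for MMP14, 0.84 ± 0.40, MMP15, 0.20 ± 0.31, and TIMP2, 0.16 ± 0.09, were not called (SE, edgeR adjusted p = 0.139, 0.669 and 0.207). Without E7 those of MMP14 (0.50, edgeR adjusted p = 2.22e-08) and TIMP2 (0.19, adjusted p = 0.000766) were called, and that of MMP15 was -0.06.

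Levels of different genes were compared per length, as CPM divided by the length in kb of the longest protein-coding transcript, which takes no account of the isoforms in use. On this scale the make-up of the 8 MMP transcripts differed between the groups, as the stacked bars show. In HCC1937 with extract, MMP1 made up 80.5% to 81.5% of the summed MMP level, against 7.54% to 8.01% in HCC1937 controls. MMP14 made up 8.65% to 9.45% there, against 41.5% to 43.6% in HCC1937 controls. The largest part in HCC1937 controls was MMP15, at a mean of 20.2 CPM per kb against 17.7 for MMP14. With extract MMP15 averaged 21.3 CPM per kb and MMP14 21.5. The summed MMP level was 232 to 237 CPM per kb in HCC1937 with extract, against 41.2 to 42.5 CPM per kb in HCC1937 controls. In MDA-MB-231 with extract it was 90.8 CPM per kb in E7, 134 in E8 and 132 in E9, against 118 to 121 CPM per kb in MDA-MB-231 controls, so the groups overlapped. MMP1 made up 67.3% of it in E7, 38.8% in E8 and 38.6% in E9, against 19.9% to 20.5% in MDA-MB-231 controls. MMP14 held 29.5% in E7, 57.2% in E8 and 57.5% in E9, against 73.4% to 73.9% in MDA-MB-231 controls. With or without E7, the share of MMP1 was above, and that of MMP14 below, every control.

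**Figure D3:**
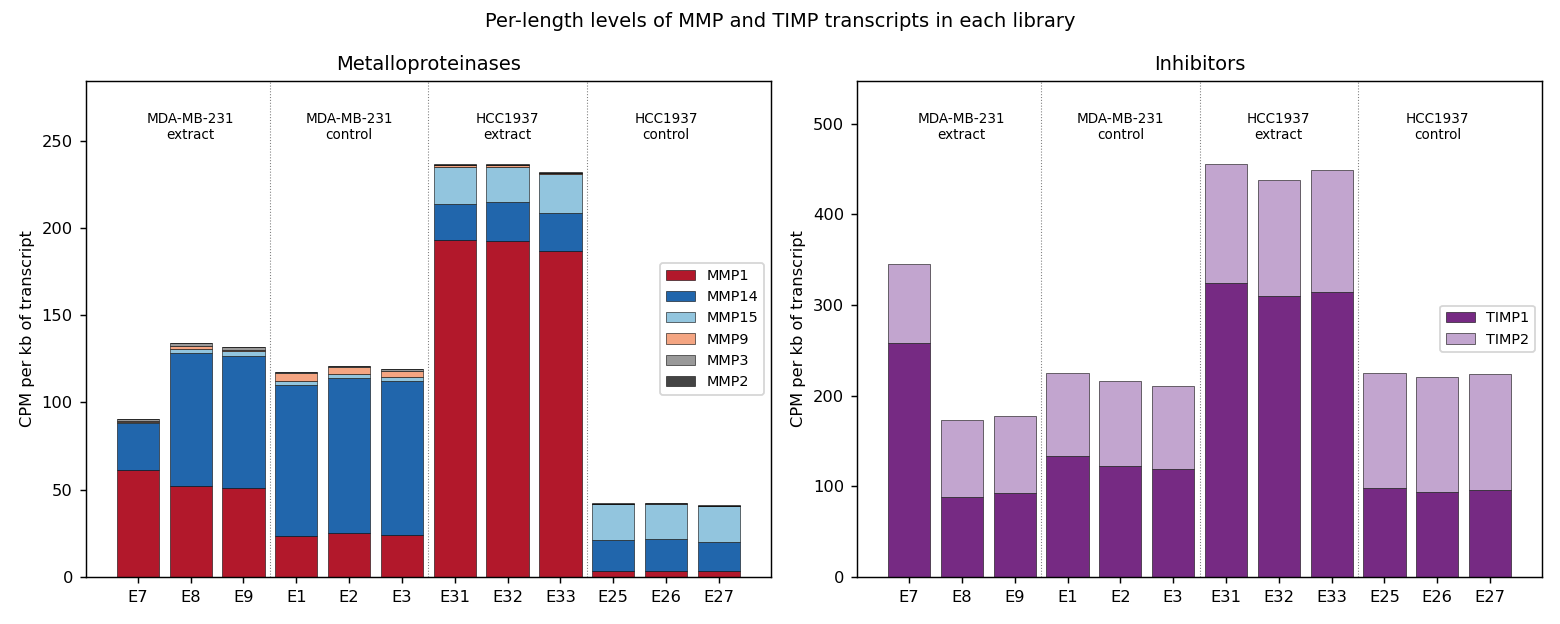
Per-length level (CPM per kb of transcript) of MMP transcripts (left) and TIMP transcripts (right) in each library, stacked by gene, with MDA-MB-231 and HCC1937 each in the order extract, control. The MMP bars reach 232 to 237 in HCC1937 with extract, where MMP1 is the main part, and 41.2 to 42.5 in HCC1937 controls. MMP7 and MMP10 are left out of the bars because of their few reads.

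The ratio of summed MMP to summed TIMP level per length was 0.525 ± 0.0126 in HCC1937 with extract, against 0.188 ± 0.0044 in HCC1937 controls (SD, n = 3). For MMP1 over TIMP1 alone it was 0.604 ± 0.0156 in HCC1937 with extract, against 0.0337 ± 0.00125 in HCC1937 controls, although TIMP1 itself rose there. In MDA-MB-231 with extract the summed ratio was 0.263 in E7, 0.774 in E8 and 0.744 in E9, against 0.523 to 0.565 in MDA-MB-231 controls. E7 was below and the others above the controls. The ratio of MMP14 to TIMP2 was 0.307 in E7, 0.899 in E8 and 0.889 in E9, against 0.945 to 0.955 in MDA-MB-231 controls, and 0.155 to 0.172 in HCC1937 with extract against 0.134 to 0.147 in HCC1937 controls. TIMP1 held 70.0% to 71.0% of the TIMP level in HCC1937 with extract, against 42.6% to 43.6% in HCC1937 controls. The sums hold the 10 members only, and so leave out TIMP3, at 454 CPM in HCC1937 with extract against 211 CPM in its controls, and MMP28. These are ratios of transcripts, not of protein or activity, and with 3 libraries against 3 the smallest p of a two-sided exact permutation test is 0.10, so none was run.

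Genes with patterns most like those of the members were sought among 10831 non-member genes that averaged 5 CPM or more, by the Pearson correlation of log2 CPM over the 12 libraries. The libraries form 4 groups, so these correlations mostly describe 4 levels and carry no p. The closest to MMP1 were RIN1 (r = 0.9895), a Ras effector, and SGK1 (r = 0.9886), a serum-induced kinase. RIN1 averaged 52.3 CPM in MDA-MB-231 with extract against 33.6 in its controls, and 71.9 CPM in HCC1937 with extract against 14.6 in its controls. The closest to MMP9 were AMPD3 (r = 0.9795) and IRF2BPL (r = 0.9724), the second at 57.5 CPM in MDA-MB-231 with extract against 236 in its controls, and 51.2 CPM in HCC1937 with extract against 38.9 in its controls. LRIG1 (r = 0.9928) and CTNNA1 (r = 0.9909) were closest to MMP14, and RPS3A (r = 0.9885) and SQOR (r = 0.9812) to TIMP1. RIPK4 (r = 0.999) and P3H2 (r = 0.9979), closest to MMP15, and PRSS22 (r = 0.9959) and CEMIP (r = 0.9954), closest to TIMP2, were genes that differed mainly between the lines, for example RIPK4 at 112 and 104 CPM in the extract and control groups of HCC1937, against 3.32 and 3.85 CPM in those of MDA-MB-231.

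Around the members, 6 lists of 77 genes in all were described, of which 63 genes passed the filter. The shares of all tested genes to set beside the counts are 32.7% higher and 39.1% lower in HCC1937, and 33% and 32.8% in MDA-MB-231. Of the 9 tested among 15 MMP genes that are not members, 0 were called higher and 6 lower in HCC1937 with extract (by edgeR; 0 higher also at an unadjusted p under 0.05 and with DESeq2), with a median log2 fold change of -1.12. In MDA-MB-231, 1 was higher and 4 lower, with a median of -0.40. Among those lower in HCC1937, MMP21 had 3 reads with extract against 41 in controls, and MMP23B 15 against 51. Their means with extract, 0.0377 and 0.197 CPM, were under the 0.424 CPM of the filter, and those of controls, 0.480 and 0.604 CPM, above it. If they passed through control libraries only, they could hardly have been called higher. In MDA-MB-231 the lower call of MMP21 rests on 3 reads against 23. MMP28, or epilysin, averaged 7.67 ± 0.309 CPM in HCC1937 with extract against 27.7 ± 0.601 CPM in its controls (SD, n = 3; log2 fold change -1.85 ± 0.20 SE, edgeR adjusted p = 5.96e-06, and -2.65 with the offset). MMP19 fell in HCC1937, with a log2 fold change of -1.12 ± 0.10 (edgeR adjusted p = 1.21e-06; -1.73 with the offset), and MMP11 fell in MDA-MB-231, at -1.42 ± 0.34 (edgeR adjusted p = 0.00306). Both were also called lower in the other line, MMP19 in MDA-MB-231 at -0.34 ± 0.11 and MMP11 in HCC1937 at -0.94 ± 0.32 (edgeR adjusted p = 0.0138 and 0.0199). With the offset MMP11 stood at -1.68 in HCC1937. MMP16, a membrane-type enzyme with a long transcript, was lower in both lines. It had 2.69 CPM with extract against 16.8 CPM in MDA-MB-231 controls, and 1.33 CPM with extract against 6.50 CPM in HCC1937 controls. With the length and GC offset its log2 fold changes were -0.22 (edgeR adjusted p = 0.351) and 0.02 (adjusted p = 0.953), so neither call held. MMP24 rose in MDA-MB-231 by a log2 fold change of 1.14 ± 0.34 (edgeR adjusted p = 0.0117), which was 0.71 without E7 and lost its call with the offset and without E7 together (0.45, adjusted p = 0.168).

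Of the other inhibitors, TIMP3 and TIMP4 rose in both lines. TIMP3, which stays bound to the matrix, averaged 454 ± 7.10 CPM in HCC1937 with extract against 211 ± 5.30 CPM in its controls, and 15.4 ± 1.31 CPM in MDA-MB-231 with extract against 11.4 ± 0.350 CPM in its controls (SD, n = 3). Its log2 fold changes were 1.11 ± 0.07 in HCC1937 (SE, edgeR adjusted p = 9.87e-08) and 0.43 ± 0.08 in MDA-MB-231 (SE, edgeR adjusted p = 0.000514). TIMP4 rose by 1.06 ± 0.10 in HCC1937 (edgeR adjusted p = 1.71e-06) and 0.93 ± 0.11 in MDA-MB-231 (edgeR adjusted p = 1.15e-05), which the offset reduced to 0.30 and 0.34. SPOCK1, a proteoglycan, fell in HCC1937, at -1.73 ± 0.13 (edgeR adjusted p = 1.74e-07; -1.0 with the offset). In MDA-MB-231 SPOCK1 was called lower at -0.44 ± 0.16 (edgeR adjusted p = 0.0252), and stood at 0.07 with the offset (adjusted p = 0.702). RECK, a membrane-anchored inhibitor, fell in MDA-MB-231, at -0.39 ± 0.11 (edgeR adjusted p = 0.0104), and stood at 0.15 with the offset (adjusted p = 0.322). In HCC1937 RECK was called lower too, at -0.46 ± 0.13 (edgeR adjusted p = 0.00607), and stood at 0.28 with the offset (adjusted p = 0.104). In all, 2 of the 5 tested genes were higher and 2 lower in HCC1937 (median 0.38), and 2 were higher and 3 lower in MDA-MB-231 (median -0.39). With the offset those 3 calls were lost and the median in MDA-MB-231 was 0.15.

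Of the 14 genes for activation of proenzymes and surface partners of MMPs, 10 were called higher and 3 lower in HCC1937 with extract (median log2 fold change 0.76), and 4 higher and 4 lower in MDA-MB-231 (median 0.08). With the offset, 7 were higher and 4 lower in HCC1937 (median 0.35). PLAT, tissue plasminogen activator, averaged 72.9 ± 3.97 CPM in HCC1937 with extract against 12.1 ± 0.350 CPM in its controls (SD, n = 3; log2 fold change 2.59 ± 0.11 SE, edgeR adjusted p = 4.12e-09). PLAUR, the urokinase receptor, rose in HCC1937 by 1.11 ± 0.07 (edgeR adjusted p = 6.63e-08), but with the offset it was not called (0.27, adjusted p = 0.0792). CTSB, the lysosomal protease cathepsin B, rose in HCC1937 by 1.87 ± 0.07 (edgeR adjusted p = 2.28e-09). In MDA-MB-231 the integrin subunits ITGAV and ITGB3 fell, with log2 fold changes of -2.29 ± 0.17 and -1.91 ± 0.19, as did PCSK5, a proprotein convertase, at -1.44 ± 0.16 (edgeR adjusted p = 3.51e-07, 2.94e-06 and 8.01e-06). In HCC1937 ITGAV and PCSK5 fell as well, at -2.72 ± 0.18 and -2.01 ± 0.14, while ITGB3 rose by 0.78 ± 0.24 (edgeR adjusted p = 7.21e-08, 1.23e-07 and 0.0128). With the offset ITGAV stood at -0.47 in MDA-MB-231 (edgeR adjusted p = 0.00845) and at -0.74 in HCC1937 (adjusted p = 0.000392). The rise of ITGB3 in HCC1937 was then not called (0.49, edgeR adjusted p = 0.0511).

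**Figure D4:**
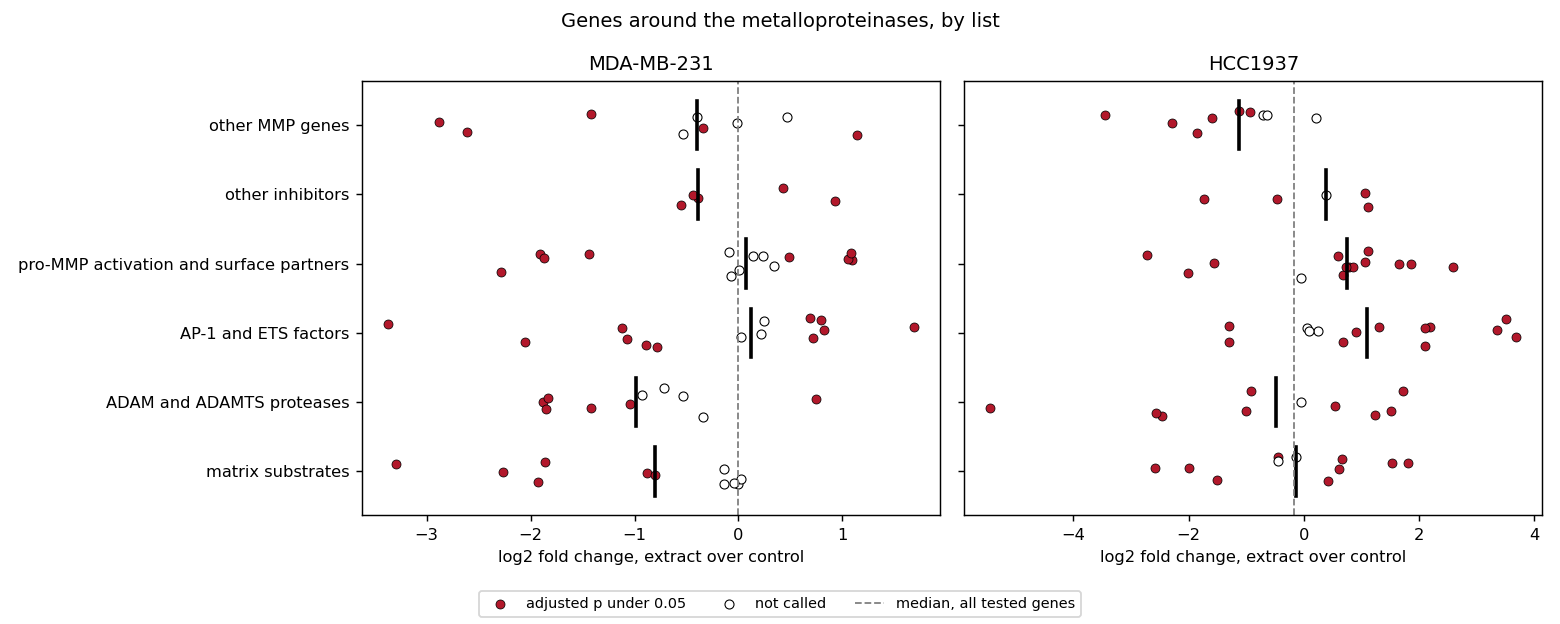
Log2 fold change of extract over control for each tested gene of 6 lists around the MMPs, in MDA-MB-231 (left) and HCC1937 (right), filled where edgeR's adjusted p is under 0.05, with a bar at the median of each list and a dashed line at the median of all tested genes. The AP-1 and ETS factors have a median of 0.12 in MDA-MB-231 and 1.10 in HCC1937, and the other MMP genes -0.40 and -1.12.

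Of a list of 14 AP-1 and ETS factors with RUNX2, which bind promoters of MMP genes, 9 were called higher and 2 lower in HCC1937 with extract (median 1.10), and 5 higher and 6 lower in MDA-MB-231 (median 0.12), where 32.7%, 39.1%, 33% and 32.8% of all tested genes were. In the test of the difference between the lines, 9 were higher in HCC1937, 1 lower and 4 not called, where 11.5% and 20.6% of all tested genes were higher and lower. FOS, which pairs with JUN proteins in AP-1, averaged 76.1 ± 7.06 CPM in HCC1937 with extract against 30.7 ± 1.11 CPM in its controls, and 25.9 ± 2.39 CPM in MDA-MB-231 with extract against 268 ± 6.40 CPM in its controls (SD, n = 3). The log2 fold changes of FOS were 1.31 ± 0.09 in HCC1937 (SE, edgeR adjusted p = 1.46e-07) and -3.37 ± 0.10 in MDA-MB-231 (SE, edgeR adjusted p = 4.95e-10). FOSB, JUN and JUNB, the other factors called in opposite directions, were singled out after their values were seen. FOSB changed by 3.69 ± 0.22 in HCC1937 and -0.78 ± 0.20 in MDA-MB-231, JUN by 2.11 ± 0.18 and -0.89 ± 0.18, and JUNB by 0.90 ± 0.08 and -1.12 ± 0.08 (log2, SE, each with an edgeR adjusted p of at most 0.00475). With the offset JUNB was not called in HCC1937 (0.04, edgeR adjusted p = 0.812) and stood at -1.76 in MDA-MB-231. ATF3, a stress-induced partner of JUN, and ETV4, an ETS factor, rose in HCC1937 by 3.52 ± 0.09 and 2.19 ± 0.08 (edgeR adjusted p = 7.32e-10 and 1.84e-09), and ETV4 stood at 1.48 with the offset. RUNX2 fell in MDA-MB-231, at -2.05 ± 0.15 (edgeR adjusted p = 2.15e-07; -1.26 with the offset). MMP9, like these 4 factors, was called in opposite directions (in HCC1937 not with the offset). MMP1 was higher in both lines. Of the same list FOSL1, ATF3, ETV4 and ETS1 were also called higher in both lines, and ELK3 and RUNX2 lower in both. ETS1 stood at 0.69 in HCC1937 and 0.72 in MDA-MB-231, against 1.77 and 1.52 with the offset. ELK3 stood at -1.30 and -1.07, against -0.37 and -0.45 with the offset. FOSL1 rose by 3.36 ± 0.21 in HCC1937 and 1.69 ± 0.20 in MDA-MB-231, against 2.47 and 0.95 with the offset. In MDA-MB-231 ATF3 rose by 0.69 ± 0.08 and ETV4 by 0.82 ± 0.08. RUNX2 in HCC1937 stood at -1.29 ± 0.14, and at -0.29 with the offset. How any factor relates to the MMP genes was not tested.

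Among 10 tested ADAM and ADAMTS proteases, relatives of the MMPs that shed surface proteins or cut proteoglycans, 4 were called higher and 5 lower in HCC1937 (median -0.47), near the 32.7% and 39.1% of all tested genes, and 1 higher and 5 lower in MDA-MB-231 (median -0.98), against 33% and 32.8%. ADAM9 and ADAM10 fell and ADAM15 rose in both lines. The log2 fold change of ADAM9 was -2.56 ± 0.13 in HCC1937 and -1.83 ± 0.13 in MDA-MB-231, against -1.11 and -0.77 with the offset. ADAM10 had -2.46 ± 0.11 and -1.88 ± 0.11, and with the offset stood at -0.33 in HCC1937 and at 0.29 in MDA-MB-231 (edgeR adjusted p = 0.000592 and 0.00187), so its direction in MDA-MB-231 turned. ADAM15 averaged 456 ± 7.15 CPM in HCC1937 with extract against 193 ± 1.77 CPM in its controls, and 323 ± 8.47 CPM in MDA-MB-231 with extract against 192 ± 4.87 CPM in its controls (SD, n = 3). Its log2 fold change in HCC1937 was 1.24, and 0.64 with the offset.

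Of 11 tested matrix substrates of MMPs, 5 were called higher and 4 lower in HCC1937 (median -0.14), and 0 higher and 6 lower in MDA-MB-231 (median -0.80; by edgeR, 0 higher also at an unadjusted p under 0.05 and with DESeq2). LAMB3, a laminin chain of epithelial basement membrane, rose in HCC1937. It averaged 910.5 ± 19.6 CPM with extract against 258 ± 0.641 CPM in HCC1937 controls (SD, n = 3; log2 fold change 1.82 ± 0.16 SE, edgeR adjusted p = 9.95e-07). LAMA3, another laminin chain, fell in MDA-MB-231, with a log2 fold change of -3.30 ± 0.17 (edgeR adjusted p = 1.87e-08). COL7A1, of anchoring fibrils, fell in both lines, at -2.58 ± 0.26 in HCC1937 and -2.27 ± 0.24 in MDA-MB-231 (edgeR adjusted p = 2.98e-06 and 6.64e-06). COL1A1, a fibrillar collagen cut by MMP1, also fell in both, at -1.50 ± 0.17 in HCC1937 and -1.86 ± 0.17 in MDA-MB-231 (edgeR adjusted p = 7.24e-06 and 2.06e-06).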

How the data were processed

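RNA of 12 libraries in 4 groups of 3 was analysed from 1 table of expected counts, that is estimated read counts per gene that need not be whole, as the authors deposited it, with no scaling for depth. Per the labels' protocols, poly-T beads were used to purify mRNA, while the library kit they name is a stranded total RNA kit. Per the submitters' processing notes, reads were checked with FastQC 0.12.1, trimmed with fastp 0.23.4 and quantified with Salmon 1.10.3 on GRCh38, with DESeq2 and R 4.4.1 also named. The sources used here do not give the annotation release, the strand setting or how transcripts were summed to genes. Of 19517 rows, 1 without a symbol held 0 reads and was left out. Of the values, 52.8% were not whole, and all were rounded.

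Groups were taken from sample titles. The cell line tags disagree with the titles in all but the first sample of each line, since they count upward from sample to sample (MDA-MB-232, HCC1938 and so on), and were not used. Members, lists and tests were chosen with earlier results of these data known. Genes passing filterByExpr (14133) were scaled by TMM and fitted in R 4.3.3 with edgeR 4.0.16, in 1 model of 4 groups without intercept over the 12 libraries, using quasi-likelihood F tests for each contrast. P-values were adjusted by Benjamini-Hochberg across these genes, and a gene is called under 0.05. SE is the log2 fold change divided by the square root of F. The test was checked on simulated data. A single library's floor of 3 counts was 0.0990 to 0.213 CPM, counting error only. Alternatives were RLE scaling, DESeq2 1.42.0, no filter, only the groups of a contrast, a per-library offset smooth in transcript length and GC (mgcv 1.9.3; 14077 tested genes with GENCODE 29 values, 99.6%), and each library left out in turn. The offset without E7 was added after seeing the data. Named genes are all members, up to 3 tested genes with the smallest p per list and line, and the 2 genes most correlated with each tested member of at least 5 CPM in a group, on log2 of CPM plus 0.5. A gene that this rule names is not reported here.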

Additional observations from a re-analysis of the deposited data

Results flagged for a closer look

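The effect of extract on 3 transcripts differed between the lines by the interaction term of edgeR's quasi-likelihood test, given as HCC1937 minus MDA-MB-231 on the log2 scale. MMP1 differed by 4.70 (adjusted p = 1.91e-09), with 3 of 3 extract libraries above all controls in both lines. MMP9 differed by 3.28 (adjusted p = 0.000535), with 3 of 3 extract libraries above the controls in HCC1937 and 3 of 3 below them in MDA-MB-231. TIMP1 differed by 1.49 (adjusted p = 0.026), with 3 of 3 extract libraries above the controls in HCC1937, and 1 above and 2 below in MDA-MB-231. This difference was 2.21 without E7, and it was not called without E1, E25, E26, E27 or E31, at adjusted p-values of 0.0518 to 0.0576 by edgeR.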

How the results depend on the processing

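No paired analysis was possible because the groups share no replicate numbers. Of the fold changes of members, 239 values without 1 library and 159 under other settings kept direction and side of the threshold, 9 and 1 lost a call, 6 and 13 gained one, and 4 and 6 turned. The 1 member lower in MDA-MB-231 became 2 with DESeq2 and 4 with the length and GC offset. The count was also 4 with the offset and E7 left out besides, and 1 to 4 without single libraries. Over all genes, 4636 were lower in MDA-MB-231 with all libraries and 4256 to 5349 without single libraries, the upper value without E7. More genes were lower there with DESeq2, and fewer with the offset, with or without E7. The 0 members lower in HCC1937 became 1 with the offset. Fewer of all genes were lower in HCC1937 with the offset than the 5522 without it. In the difference between the lines, leaving out single libraries gave 2 to 5 members higher (3 with all libraries), and over all genes 1341 to 3554 higher (1630) and 2342 to 4779 lower (2908), the upper value of each without E7. Directions turned as follows, and the cause was not tested. With the offset, MDA-MB-231 gave log2 fold changes of -0.71 for TIMP1 (-0.88 also without E7), 0.29 for ADAM10 (0.31) and 0.15 for RECK (0.01). SPOCK1 stood at 0.07 there. In HCC1937 they were -0.20 for MMP14, -0.24 for MMP15, -0.35 for TIMP2, 0.02 for MMP16 and 0.28 for RECK, and the difference for TIMP2 was -0.05. Leaving out single libraries gave -0.32 to 0.15 for MMP15 and -0.47 to 0.48 for TIMP1 in MDA-MB-231. It gave -0.06 to 0.40 for the MMP15 difference and -0.63 to 0.19 for MMP9 between the extract groups. MMP3 in HCC1937 libraries alone did not pass the filter. MMP2, MMP3, MMP7, MMP9 and MMP10 have few reads in at least 1 line, which limits their precision.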
